A study of Mus musculus with 9 samples.

Results

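The 10 genes described here code for receptors and signals known from mature mouse neutrophils. They are Cxcr1, Cxcr2, Csf3r, Fpr1, Fpr2, Mrgpra2a, Mrgpra2b, Prok2, G0s2 and Slfn4. They were taken by symbol from a table of 18571 genes, and all 10 were present. Prok2 and Mrgpra2a were selected on their estimated counts, which were much higher in the cKO libraries than in the others. Values that involve those libraries are therefore given for the 10 genes as a description, with no test. The libraries without that genotype, APP/PS1 and WT, were compared with a test. It covered the 8 genes that passed the filter on low counts without the cKO libraries. APP/PS1 was also a group against which the rise was seen. No p is therefore given for Prok2, which is among these 8.

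The RNA came from the cortex and hippocampus of 9-month-old mice of 3 genotypes with 3 libraries each, in cells labelled microglia that were caught on a dish with an antibody to CD45, a surface protein of all leukocytes. WT mice were wild type, APP/PS1 mice carried the amyloid transgenes, and the third group (APP/PS1:Cx3cr1-CreER:Cx43-flox/flox, called cKO below, for conditional knockout) added floxed Cx43 (the gene Gja1) and a tamoxifen-dependent Cre. Per the labels all 3 groups were given tamoxifen by mouth at 8 months of age, at 0.1 mg/g on 5 days, and the brains were perfused and freed of meninges. No group carried the Cre without floxed Cx43, and the Cx3cr1 promoter is active in monocytes and other myeloid cells as well as in microglia. The labels do not say whether the libraries came from separate animals, so p-values measure the spread between these libraries only.

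Neutrophils are made in the bone marrow, where G-CSF acting on its receptor drives their production. As they mature they switch off the genes of their first granules and switch on chemoattractant receptors, which steer them out of the marrow and into inflamed tissue. Few neutrophils are found in the healthy brain itself, while the meninges, the blood and the skull marrow hold more. Csf3r is not restricted to neutrophils, since mouse microglia also transcribe it.

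Total estimated counts were 18907681 to 19565354 per library, and 14696 genes passed the filter on low counts. Microglial markers were abundant in every library, with a summed level of 16797 to 21067 CPM (counts scaled to library size) over 8 genes. The targeted gene Gja1 fell by 0.56 on the log2 scale in cKO against APP/PS1 (edgeR adjusted p = 7.95e-09), with 484 to 539 estimated counts in cKO and 688 to 788 in APP/PS1. Gja1 is also a gene of astrocytes, and 4 of 5 astrocyte markers fell in the same comparison with none rising (median log2 -0.47), from a summed 437 to 453 CPM in APP/PS1 to 332 to 338 in cKO (261 to 262 in WT); their part in the Gja1 difference was not tested. Cx3cr1, whose promoter drives the Cre, had a mean level of 1214 CPM in cKO, 2231 in APP/PS1 and 2260 in WT. The Y-linked gene Ddx3y had 4137 to 4538 estimated counts in the 6 WT and APP/PS1 libraries and 0 to 2.34 in the cKO libraries. Genotype and Y-linked expression therefore cannot be told apart in any value that sets cKO against another group. In a bulk library, fewer cells of a type and less RNA per cell cannot be told apart either.

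All 10 genes passed the filter on low counts, but Cxcr1 and Mrgpra2a passed it only through the cKO libraries, where they were high. No p is therefore given for these 2, and their differences are a description. The genes lie at 7 places in the mouse genome (build GRCm38.p6, RefSeq annotation). Cxcr2 (chr1:74153994-74161246, plus strand) and Cxcr1 (chr1:74191785-74194708, minus strand) are neighbours, as are Fpr1 (chr17:17876471-17883939, minus strand) and Fpr2 (chr17:17887824-17893952, plus strand). Mrgpra2a (chr7:47426325-47452164) and Mrgpra2b (chr7:47463807-47489582) are both on the minus strand. Csf3r (chr4:126023441-126044975, plus strand), Prok2 (chr6:99711299-99726392, minus strand), G0s2 (chr1:193272160-193273188, minus strand) and Slfn4 (chr11:83175172-83190216, plus strand) stand apart from the others.

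Promoters are shown for the genes with the widest range between groups (Prok2 and Mrgpra2a), for Slfn4, which had the most counts in cKO after Csf3r, and for Csf3r, the gene that moved least. Each line holds the 250 bases before the start given in the RefSeq promoter table, 5′ to 3′ on the gene's strand. That start is the end of the gene's span for Prok2 and Mrgpra2a, but it lies 14 bases inside the span of Slfn4 and 1218 bases inside that of Csf3r, so the Csf3r window is within the annotated gene. Capitals mark matches, on either strand, to short motifs of factors known from granulocytes and inflammation, namely C/EBP (TTNNGNAA), PU.1 (AGGAAG), STAT (TTCNNNGAA), the interferon element ISRE and the E-box (CACGTG).
Prok2, chr6:99726393-99726642, minus strand: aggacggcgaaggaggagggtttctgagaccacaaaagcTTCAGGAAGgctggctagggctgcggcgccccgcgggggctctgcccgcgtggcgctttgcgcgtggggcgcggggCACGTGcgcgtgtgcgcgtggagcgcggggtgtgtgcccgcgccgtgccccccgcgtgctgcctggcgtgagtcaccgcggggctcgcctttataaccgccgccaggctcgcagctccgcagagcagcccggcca
Mrgpra2a, chr7:47452165-47452414, minus strand: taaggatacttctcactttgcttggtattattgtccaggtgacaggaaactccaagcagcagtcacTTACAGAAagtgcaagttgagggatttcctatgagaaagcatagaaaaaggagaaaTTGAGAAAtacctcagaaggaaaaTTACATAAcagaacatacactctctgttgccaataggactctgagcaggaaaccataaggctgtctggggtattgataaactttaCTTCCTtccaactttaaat
Slfn4, chr11:83174936-83175185, plus strand: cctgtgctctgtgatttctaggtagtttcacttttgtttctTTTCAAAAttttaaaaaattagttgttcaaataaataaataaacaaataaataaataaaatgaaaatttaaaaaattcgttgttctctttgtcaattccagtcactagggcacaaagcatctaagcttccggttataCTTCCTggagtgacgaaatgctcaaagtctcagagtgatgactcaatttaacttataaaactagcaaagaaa
Csf3r, chr4:126024409-126024658, plus strand: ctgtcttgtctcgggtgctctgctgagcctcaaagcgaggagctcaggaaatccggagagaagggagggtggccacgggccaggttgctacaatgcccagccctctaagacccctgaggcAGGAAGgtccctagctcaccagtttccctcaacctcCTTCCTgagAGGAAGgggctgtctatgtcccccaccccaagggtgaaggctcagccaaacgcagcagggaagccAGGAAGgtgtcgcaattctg
The Mrgpra2b promoter (chr7:47489583-47489832) was identical to that of Mrgpra2a over all 250 bases.

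C/EBP letters were present in 6 of the 10 promoters (Fpr1, Fpr2, Mrgpra2a, Mrgpra2b, Prok2 and Slfn4), against 36.8% of 32851 mouse promoter windows of the same length. PU.1 letters were in 7 of the 10 (all but Cxcr1, Fpr1 and Fpr2), against 29.5% of all windows, and the Csf3r window held 4 of them. Of the other motifs, the STAT letters were found in Fpr2 alone among the 10 (7.02% of all windows), the E-box in Prok2 alone (6.02%) and the ISRE in none (2.98%). In Prok2 the C/EBP and PU.1 matches overlap and share most of their bases. These matches are letters in a window and were not tested as binding sites.

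The Mrgpra2 pair needs its sequences beside its values, because the coding sequences of Mrgpra2a and Mrgpra2b are both 996 bases long and differ at only 2 of them. Counted from the first base of the Mrgpra2a start codon, the differences are A351G and G890A, with the Mrgpra2a base first. The 61 bases around each are shown with the differing base in capitals.
Mrgpra2a around position 351: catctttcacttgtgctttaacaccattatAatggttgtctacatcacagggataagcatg
Mrgpra2b around position 351: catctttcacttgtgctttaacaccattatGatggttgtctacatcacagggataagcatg
Mrgpra2a around position 890: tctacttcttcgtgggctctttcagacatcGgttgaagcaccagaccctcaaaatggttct
Mrgpra2b around position 890: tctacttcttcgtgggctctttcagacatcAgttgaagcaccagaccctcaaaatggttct
The reads were 50 bases long, and 847 of the 947 windows of that length in the coding sequence (89.4%) are identical in both genes. Over whole GENCODE transcripts, 87.1% of the Mrgpra2a windows also occur in Mrgpra2b. How the authors' counting divided such reads is not stated, so the split between the genes is uncertain while their sum does not depend on that split.

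Mrgpra2a and Mrgpra2b are receptors of the Mas-related family that respond to defensin peptides on mouse neutrophils. Mrgpra2b had 797, 786 and 727 estimated counts in cKO libraries 1 to 3, against 45, 38.1 and 40 for APP/PS1 and 175, 120.3 and 233 for WT. Mrgpra2a had 141, 97.9 and 156 in cKO, 0, 5.94 and 0 in APP/PS1 and 51.2, 66.7 and 10.1 in WT. The groups did not overlap for either gene, and the order was cKO, WT, APP/PS1 in both. WT library 3 was the lowest of the WT libraries for Mrgpra2a and the highest for Mrgpra2b. The share of the pair's counts given to Mrgpra2a was 4.16% there, 22.7% and 35.7% in WT libraries 1 and 2, and 11.1% to 17.7% in cKO. The summed counts of the pair were closer together, at 226, 187 and 243 (WT), 45, 44 and 40 (APP/PS1) and 938, 884 and 883 (cKO). Refitted as a single gene, and with no test because Mrgpra2a is part of the sum, the pair was 4.63-fold lower in APP/PS1 than in WT (log2 -2.21, SE 0.13), with all 3 APP/PS1 libraries below every WT library. The same sum was 4.38-fold higher in cKO than in WT (log2 2.13, SE 0.07).

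**Figure D1:**
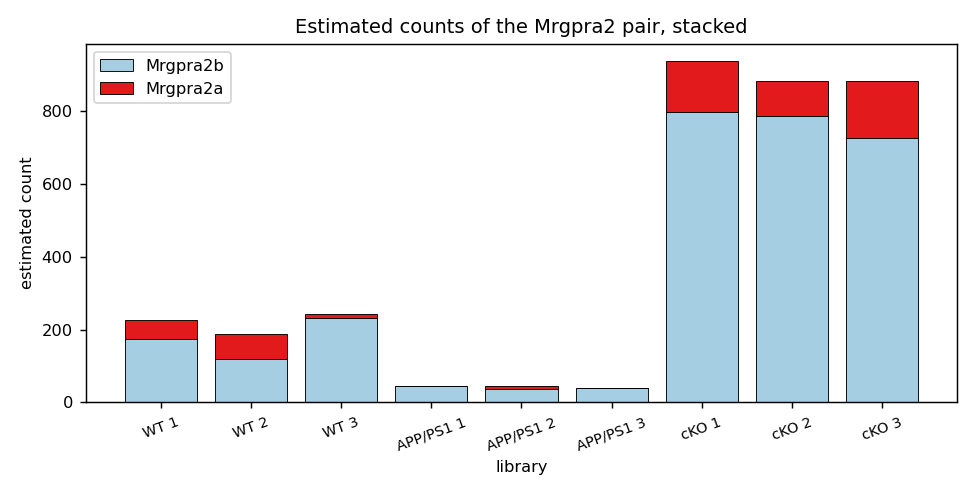
Estimated counts of Mrgpra2b (lower, light bars) and Mrgpra2a (upper, red bars) stacked for each of the 9 libraries. The bar heights are the summed counts, 40 to 45 in APP/PS1, 187 to 243 in WT and 883 to 938 in cKO, and the red share is smallest among the WT libraries in WT 3.

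Taken separately, Mrgpra2b was lower in APP/PS1 than in WT by 3.91-fold (log2 -1.97, SE 0.29, edgeR adjusted p = 0.000522). For Mrgpra2a the fitted log2 difference was -4.20 with an SE of 1.24, and it ran from -3.65 to -8.36 when 1 library was left out. The value of -8.36 came without APP/PS1 library 2, the only library of that group with Mrgpra2a counts. Since 2 of the 3 APP/PS1 libraries had no Mrgpra2a count, pooled counts are given beside the fit. They were 128 in WT and 6 in APP/PS1, a 19.5-fold difference. That fold carries the uncertain split between the genes and is a description only.

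Prok2 codes for prokineticin 2, a small secreted protein that neutrophils release in response to G-CSF and that acts on the receptors Prokr1 and Prokr2. It had 216, 224 and 213 estimated counts in cKO, 0, 4 and 4 in APP/PS1 and 50, 53.8 and 49 in WT. The 3 groups were far apart compared with the spread inside each, which was 11.4 ± 0.309 CPM in cKO, 0.144 ± 0.124 CPM in APP/PS1 and 2.52 ± 0.132 CPM in WT (SD, n = 3). Prok2 fell by 4.07 on the log2 scale in APP/PS1 against WT (SE 0.33). No p is given, because the rise that selected Prok2 was also seen against APP/PS1. In pooled counts WT was 17.5-fold above APP/PS1, and cKO was 79.1-fold above APP/PS1 and 4.53-fold above WT. The folds against APP/PS1 rest on 8 pooled counts in that group, while the fold of cKO against WT rests on 653 and 153.

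The receptors Prokr1 and Prokr2 were near the limit of detection, with 6 to 11 and 1 to 4 estimated counts per library, and neither passed the filter on low counts. Prok1, the other prokineticin, had 0 counts in all APP/PS1 libraries and at most 2.36 elsewhere.

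Cxcr2 is the main receptor of the chemokines Cxcl1, Cxcl2 and Cxcl5 on neutrophils and governs their exit from the marrow. It had 1043, 1021 and 1001 estimated counts in cKO, 164, 156 and 119.7 in APP/PS1 and 439, 485 and 440.2 in WT, with no overlap between groups. Mean levels were 53.6 ± 1.56, 7.94 ± 1.31 and 22.5 ± 1.26 CPM in the same order (SD, n = 3). Cxcr2 fell 2.83-fold in APP/PS1 against WT (log2 -1.50, SE 0.09, edgeR adjusted p = 2.87e-14). In cKO it was 6.75-fold higher than in APP/PS1 and 2.39-fold higher than in WT.

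Cxcr1, the neighbouring gene for a related receptor, shared 71.2% of its aligned coding bases with Cxcr2 and no window of 50 bases. It was rare, with 21.5, 19.0 and 24 estimated counts in cKO, 1 in each APP/PS1 library and 11, 9.04 and 8 in WT. The order of the groups was nevertheless that of Cxcr2. The fitted log2 difference of APP/PS1 from WT was -2.95 (SE 0.58, with no test). In pooled counts WT exceeded APP/PS1 8.52-fold, a value that rests on 28 counts in WT and 3 in APP/PS1. Against WT, cKO was 2.47-fold higher (65 pooled counts in cKO and 28 in WT).

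Fpr1 and Fpr2 detect formylated peptides from bacteria and from mitochondria, and Fpr2 also binds annexin A1 and serum amyloid A. Fpr1 had 663, 657 and 676 estimated counts in cKO, 43.3, 53.3 and 66.0 in APP/PS1 and 199, 178 and 177 in WT. Fpr2 had 1050, 944 and 986 in cKO, 116, 127 and 121 in APP/PS1 and 257, 275 and 291 in WT. Neither gene overlapped between groups. Fpr1 fell 3.12-fold in APP/PS1 against WT (log2 -1.64, SE 0.12, edgeR adjusted p = 5.53e-12) and Fpr2 2.06-fold (log2 -1.04, SE 0.09, edgeR adjusted p = 1.15e-10). Against WT, the cKO level was 3.82-fold higher for Fpr1 and 3.85-fold higher for Fpr2. Some reads of Fpr2 could belong to relatives, since 31.5% of its windows of 50 bases occur in Fpr1, Fpr3 or Gm5966, whereas 0.0784% of those of Fpr1 occur elsewhere. Fpr3, the relative that was in the table, had at most 1.03 estimated counts in any library, and its part in the Fpr2 count was not tested.

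Slfn4, an interferon-inducible Schlafen gene of myeloid cells, had 7594, 7250 and 7368 estimated counts in cKO, 323, 319 and 317 in APP/PS1 and 1628, 1579 and 1669 in WT. Its libraries were close together within groups, at 388 ± 12.2, 17.3 ± 0.303 and 80.3 ± 2.16 CPM (SD, n = 3). Slfn4 fell 4.64-fold in APP/PS1 against WT (log2 -2.21, SE 0.05, edgeR adjusted p = 1.68e-23). It was 22.5-fold higher in cKO than in APP/PS1 and 4.84-fold higher than in WT, the largest difference from WT among the 10 genes on the log2 scale (2.27, SE 0.03) and close to Mrgpra2b (2.22, SE 0.16). Slfn1, Slfn2, Slfn3, 9830107B12Rik and Gm11427 together hold 11.3% of its windows of 50 bases.

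G0s2 codes for an inhibitor of adipose triglyceride lipase (Pnpla2), the enzyme that starts the breakdown of stored fat. It had 348, 385 and 355 estimated counts in cKO, 72, 59 and 59 in APP/PS1 and 244, 236 and 258 in WT. The drop in APP/PS1 against WT, 3.54-fold (log2 -1.82, SE 0.11, edgeR adjusted p = 3.74e-14), showed no overlap between libraries. The cKO level was only 1.57-fold above WT (log2 0.65, SE 0.08), less than for any other of the genes except Csf3r.

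Csf3r, the receptor for G-CSF, had 12411, 13664 and 14002 estimated counts in cKO, 9195, 10291 and 10550.4 in APP/PS1 and 12806, 14349 and 14624 in WT. The cKO and WT libraries overlapped, and the APP/PS1 libraries were below both. Csf3r fell 1.27-fold in APP/PS1 against WT (log2 -0.34, SE 0.06, edgeR adjusted p = 0.00177). cKO was 1.29-fold above APP/PS1 (log2 0.37, SE 0.06) and differed from WT by 0.03 on the log2 scale (SE 0.06), a value whose sign turned with library totals (-0.08), with FPKM (-0.07) and with TPM (-0.16). Windows that also occur in other genes made up 10.7% of Csf3r and 6.68% of Cxcr2, and they came from 402 and 220 other genes.

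**Figure D2:**
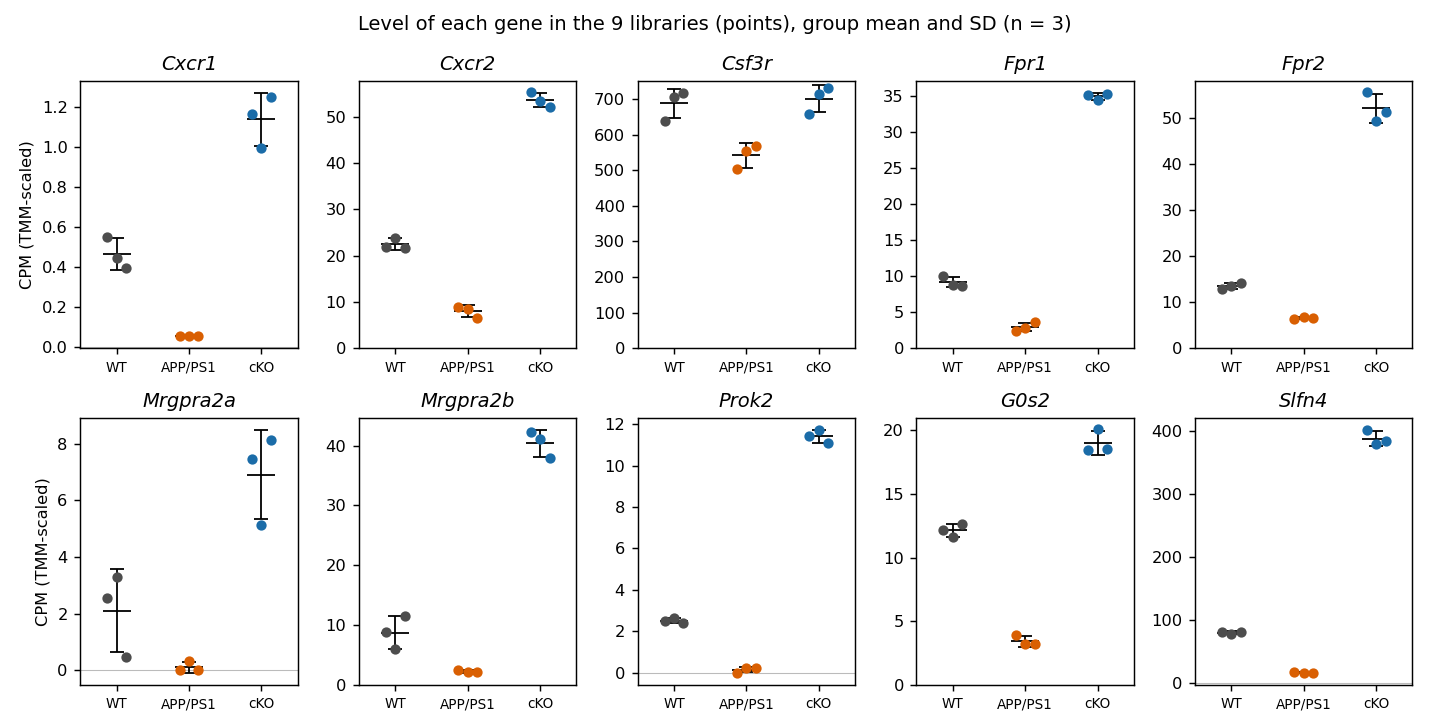
CPM of each of the 10 genes (1 panel a gene, linear axes of different height) in the 3 libraries of WT (grey), APP/PS1 (orange) and cKO (blue), with the group mean and SD. The APP/PS1 points lie lowest in all 10 panels and the cKO points highest in 9, the exception being Csf3r at 701 CPM in cKO and 687 CPM in WT.

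Of the 8 genes that passed the filter without the cKO libraries, all 8 were called lower in APP/PS1 than in WT, with log2 differences of -0.34 (Csf3r) to -4.07 (Prok2) and a median of -1.73. Prok2 counts among these 8 although its choice drew on its rise above the APP/PS1 level. With at least 10 counts in every library, where Prok2 is not tested, 7 genes were tested and all 7 were called lower. In the fit described, the largest fall after that of Prok2 was in Slfn4 (-2.21). The threshold was an edgeR adjusted p of 0.05, at which 32% of all tested genes were called lower and 59% were called in either direction, with a median over all genes of -0.04. All 8 also had every APP/PS1 library below every WT library, a pattern that 34.6% of all genes showed. The split of all called genes depended on scaling, with 45.7% of them higher in the fit described, 29.5% with library totals, 30.2% with FPKM and 14.7% with TPM. The cause of that dependence was not tested. The 8 genes were called lower under each of those scalings.

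In cKO against APP/PS1 the log2 differences ran from 0.37 (Csf3r) to 6.24 (Prok2), with a median of 3.88 beside -0.01 over all genes. All 10 genes had every cKO library above every APP/PS1 library, as did 29.4% of all genes, and nothing is read from that count because the choice of genes used those libraries. This comparison shares the APP/PS1 libraries with the one against WT, so the low APP/PS1 values enter both. Without Prok2 and Mrgpra2a the median of the other 8 was 3.28. Against WT the cKO median was 1.82, and 9 of 10 genes did not overlap, beside 27.9% of all genes higher in that way.

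**Figure D3:**
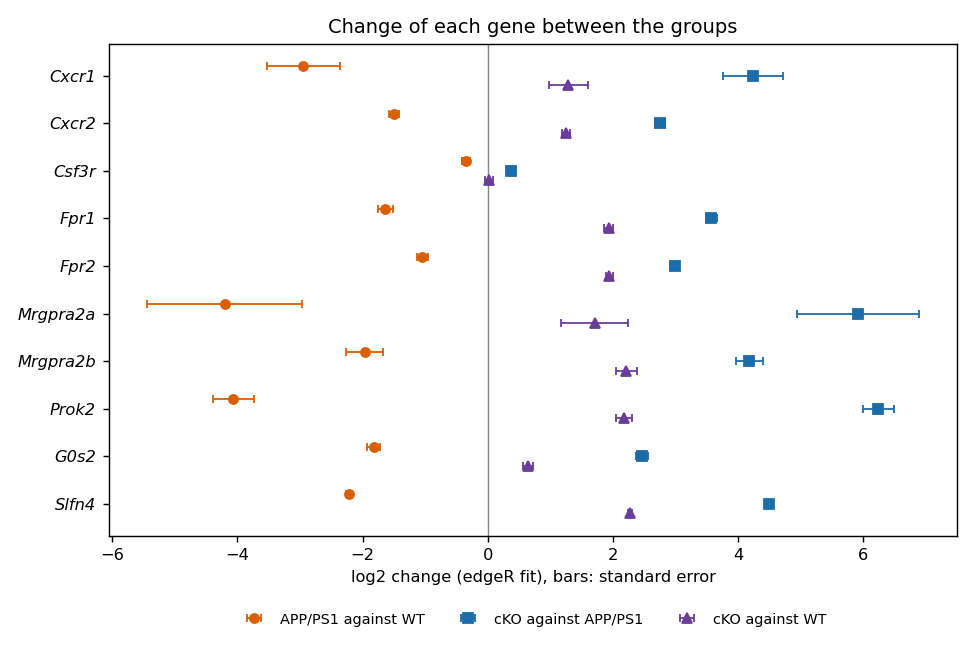
Fitted log2 change with its standard error for each gene in APP/PS1 against WT (orange circles), cKO against APP/PS1 (blue squares) and cKO against WT (violet triangles). All circles lie left of 0 and all squares right of it, the widest bars belong to Mrgpra2a, and the Csf3r triangle sits at 0.03.

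Compared per transcript length, in the deposited TPM, Csf3r was the most abundant of the genes in every group, at 513 ± 32.4 in WT, 307 ± 18.7 in APP/PS1 and 459 ± 27.6 in cKO (SD, n = 3). In WT it was followed by Slfn4 (48.7), G0s2 (36.0) and Fpr2 (25.6), then by Cxcr2 (17.7), Fpr1 (16.9) and Mrgpra2b (16.8), whose libraries overlapped. Prok2 (4.21), Mrgpra2a (4.04) and Cxcr1 (0.907) came last and also overlapped in neighbouring pairs. In APP/PS1 Fpr2 (9.43) came second and Slfn4 (8.07) overlapped G0s2 (7.75). In cKO no neighbours in the order overlapped. There Slfn4 reached 206, ahead of Fpr2 (85.9), Mrgpra2b (68.3), Fpr1 (56.3), G0s2 (49.2) and Cxcr2 (36.9), so that G0s2 moved from the third place in WT to the sixth. Prok2 (16.6) and Mrgpra2a (11.2) lay between these and Cxcr1 (1.96).

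**Figure D4:**
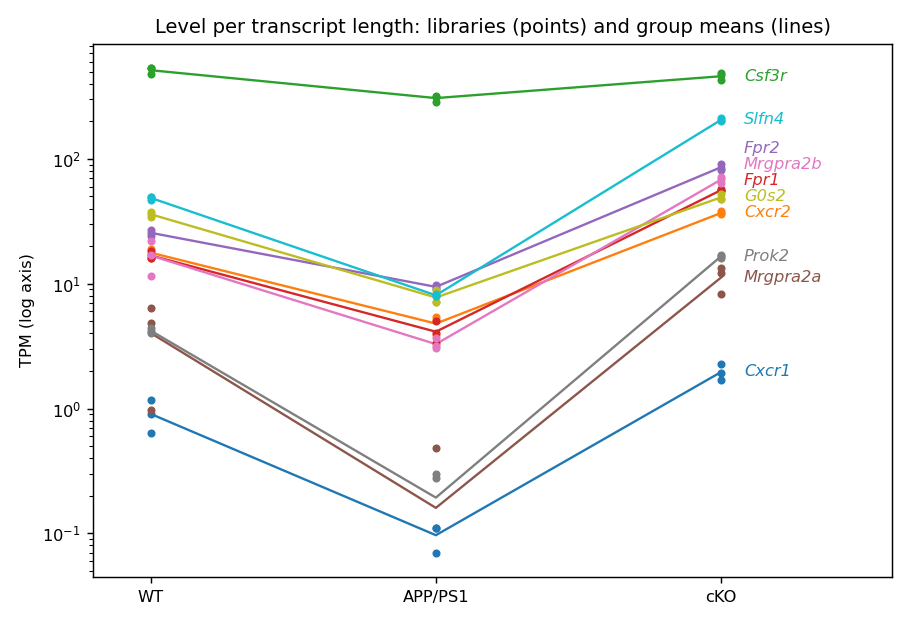
TPM on a log axis in the 3 groups, with 1 line a gene through the group means and points for libraries above 0 (libraries at 0 TPM, for Prok2 and Mrgpra2a in APP/PS1, have no point). Csf3r runs nearly flat at 307 to 513, the Slfn4 line rises from 8.07 in APP/PS1 to 206 in cKO, and the G0s2 line crosses those of Fpr2, Mrgpra2b and Fpr1.

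The 10 genes together took 0.0839% to 0.0919% of the counts of a WT library, 0.0525% to 0.0583% in APP/PS1 and 0.127% to 0.13% in cKO. Csf3r made up most of that. Without it the shares were 0.0156% to 0.0162%, 0.00376% to 0.00402% and 0.0584% to 0.0619%, and the groups stood much further apart.

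The tested genes whose profile over the 9 libraries was most like the mean profile of the 10 were Mmp25, Abca13, Pram1, Acpp, Nfe2, Gpr141, Ifitm6, Il1f9, Anxa1 and Chil1. Likeness was the Euclidean distance between centred log2 CPM profiles, among 13584 genes with a mean of at least 1 CPM. Mmp25, a membrane-bound metalloproteinase of neutrophils, was the nearest (distance 0.38), with 16.8, 4.94 and 55.2 CPM in WT, APP/PS1 and cKO. Of the 10 genes themselves, Fpr1 lay closest to the mean profile (0.63) and Csf3r farthest from it (3.82).

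The ligands and partners of these receptors moved in both directions or not past the threshold. Of 8 tested, 2 rose in cKO against APP/PS1 (edgeR, adjusted over all genes), where 27.3% of all genes rose. They were Anxa1 (log2 3.34, SE 0.04), which codes for an Fpr2 ligand, and Saa3 (3.10, SE 0.12), a serum amyloid A. Ppbp, which codes for a Cxcr2 ligand stored in platelets, fell by 3.33 (SE 0.17). The 3 called genes became 6 without WT library 3, and 3 or 4 without any other single library. Cxcl3 was 1.66 higher without a call (SE 0.63, edgeR adjusted p = 0.0664). It was called with only the groups compared (3.04e-07) and with length offsets (2.16, 0.0277). Cxcl1 (0.67, edgeR adjusted p = 0.000591) and Cxcl2 (0.50, 6.4e-13) were also called higher with length offsets. Ppbp stayed lower under these settings (-3.33 and -2.83). In APP/PS1 against WT 3 fell (Anxa1, Saa3 and Ppbp) and 1 was called higher, Cxcl2, at 0.39 on the log2 scale in the fit described but at -0.25 with offsets by transcript length (edgeR adjusted p = 4.04e-07). When same-numbered libraries were blocked together, 2 more were called lower, Cxcl5 (log2 -2.67, edgeR adjusted p = 9.01e-07, 0.291 without the block) and Csf3, the gene for G-CSF (-1.14, 0.0177, 0.148 without the block). Both rested on WT library 3, without which the unblocked differences were 2.75 for Cxcl5 and -0.14 for Csf3 (edgeR adjusted p = 0.423 and 0.848). Cxcl5, a Cxcr2 ligand singled out after its values were seen, had 478, 63.0 and 54.9 estimated counts in library 3 of WT, APP/PS1 and cKO, and 1 to 5 in the other 6 libraries. Among the 10 genes only Csf3r was highest in library 3 of each group, at 716, 568 and 730 CPM, and by small margins.

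Signalling genes downstream of chemoattractant receptors shifted by small amounts. In cKO against APP/PS1 20 of 22 rose and 1 fell, where 27.3% of all genes rose, and the median of the 22 was 0.29. The largest rises were in Fgr (log2 2.09, SE 0.05) and Rac2 (1.04, SE 0.04), a Src-family kinase and a small GTPase of blood cells, in Grk6 (1.17, SE 0.04), a receptor kinase, and in Coro1a (0.70, SE 0.03), an actin regulator. In APP/PS1 against WT 17 of the 22 fell and 1 rose, with a median of -0.31, where 32% of all genes fell. Genes of the G-CSF receptor pathway moved likewise, with 9 of 10 higher in cKO than in APP/PS1 (median 0.30) and 9 of 10 lower in APP/PS1 than in WT (median -0.35). Among them were Stat5b (0.43, SE 0.04), Jak2 (0.37, SE 0.04), Stat5a (0.35, SE 0.08) and Stat3 (0.32, SE 0.03) in the first of these comparisons.

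Of the genes for proteins that work with G0s2 in fat breakdown, 4 of 7 rose in cKO against APP/PS1 and none fell, where 27.3% of all genes rose. They were Abhd5 (log2 0.53, SE 0.06), the activator of the lipase, the droplet coat genes Plin2 (0.50, SE 0.04) and Plin3 (0.28, SE 0.07), and Mgll (0.11, SE 0.04), whose call was lost without APP/PS1 library 1 or 3 or cKO library 2 or 3 (edgeR adjusted p = 0.0629 to 0.166) and with the DESeq2 Wald test (adjusted p = 0.0851). With offsets by transcript length the Mgll difference was 0.04 (edgeR adjusted p = 0.452). The lipase gene Pnpla2 itself differed by 0.08 (SE 0.07, edgeR adjusted p = 0.386). Plin2 rose in APP/PS1 against WT (0.65, SE 0.04), whereas G0s2 fell.

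Slfn1, near Slfn4 on chromosome 11, was the Schlafen gene most like it, with 11, 3.54 and 42.5 CPM in WT, APP/PS1 and cKO. It rose by 3.59 on the log2 scale in cKO against APP/PS1 (SE 0.08) and fell by 1.64 in APP/PS1 against WT (SE 0.10). In the former comparison 5 of the 7 other Schlafen genes rose and none fell, where 27.3% of all genes rose. The rises other than that of Slfn1 were at most 0.96 (Slfn3, SE 0.24). The 5 became 3 without cKO library 1, where Slfn5 and Slfn9 lost their calls (edgeR adjusted p = 0.138 and 0.0659). Both also lost them without APP/PS1 library 2 (0.0758 and 0.0557), Slfn9 without APP/PS1 library 3 (0.0698), and Slfn5 with the DESeq2 Wald test (0.0526) and with length offsets (0.121). The Mrgpr relatives in the table were low. Of 3 tested, Mrgpre rose in APP/PS1 against WT (0.99, SE 0.11), where the Mrgpra2 pair fell. It also rose in cKO against APP/PS1 (0.28, SE 0.09), a call lost without APP/PS1 library 1 or cKO library 3 (edgeR adjusted p = 0.0694 and 0.0501), with length offsets (0.0502) and with the DESeq2 Wald test (0.0673).

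Among 14 other chemokine and cytokine receptors, 8 rose and 2 fell in cKO against APP/PS1, where 27.3% of all genes rose. Ltb4r1, the leukotriene B4 receptor of neutrophils, changed as the 10 genes did, with a rise of 3.76 (SE 0.11) there and a fall by 2.48 (SE 0.13) in APP/PS1 against WT. Cxcr4, which holds neutrophils in the marrow and is also found on other leukocytes, rose in both comparisons (0.99, SE 0.04, and 0.51, SE 0.04). Of 10 myeloid transcription factors 8 rose and none fell in cKO against APP/PS1, led by Cebpe (4.08, SE 0.17), a factor needed for late granulocyte maturation, Mxd1 (2.46, SE 0.04) and Gfi1 (1.91, SE 0.25). The same 3 fell in APP/PS1 against WT, by 2.75, 1.40 and 1.80.

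Genes of neutrophils outside the 10 moved with them, and their part in the result was not tested. All 15 other mature neutrophil genes rose in cKO against APP/PS1 (median log2 3.10) and all 15 fell in APP/PS1 against WT (median -1.72). Of all tested genes, 27.3% rose in the first comparison and 32% fell in the second. Among them were Lrg1 (4.27, SE 0.09), Hdc (3.57, SE 0.05), Slpi (3.56, SE 0.06) and Mmp25 (3.48, SE 0.07) in the first comparison. All 15 genes of the specific granule list did the same (medians 3.90 and -2.26), with Cd177 at 4.62 (SE 0.05) and Ltf at 4.54 (SE 0.03) in the first comparison. Proteins of these granules are made at the middle stages of maturation, and the list also holds other neutrophil genes. All 7 genes of the calprotectin list, which holds S100a8, S100a9 and the stefins, rose in cKO against APP/PS1 and 6 of them fell in APP/PS1 against WT. The summed level of the specific granule genes was 6336 to 6367 CPM in cKO, 424 to 430.0 in APP/PS1 and 1932 to 1950 in WT, and no gene of these lists was at 0 in all libraries of a group.

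The genes of the azurophil granule list, most of which are transcribed in promyelocytes before the receptors appear, had a different order of groups. They fell far in APP/PS1 against WT (7 of 8, median -5.26), with Mpo at 5.14 CPM in APP/PS1 and 303 CPM in WT. In cKO against APP/PS1 7 of 8 rose (median 4.68) and 1 fell, Nkg7, from 9.57 to 7.11 CPM. Against WT, however, 6 of the 8 were lower in cKO, among them Mpo (-0.69, SE 0.04), Elane (-0.79, SE 0.04), Prtn3 (-0.40, SE 0.05) and Ctsg (-0.85, SE 0.05), while Fcnb and Serpinb1a were higher. All 15 genes of the specific granule list and 14 of the 15 other mature neutrophil genes were higher in that comparison, in which 24.7% of all genes were called higher and 23% lower.

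**Figure D5:**
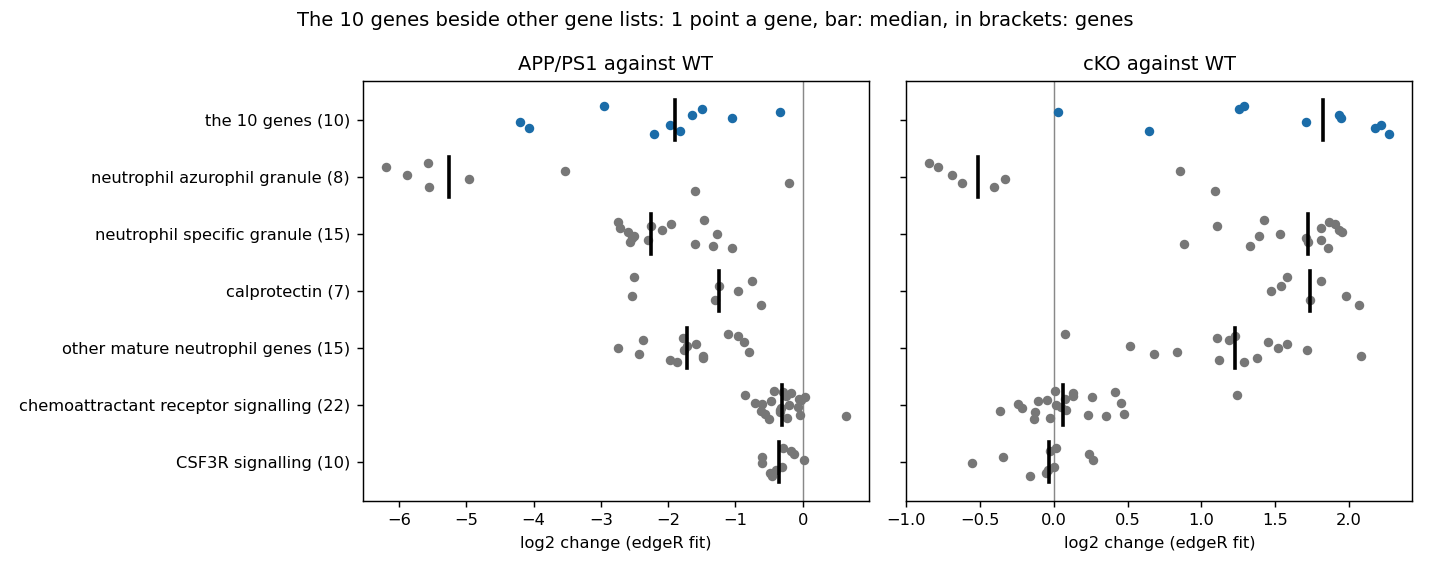
Log2 change of the 10 genes (blue) and of the genes of 6 other lists (grey, 1 point a gene, black bar at the median) in APP/PS1 against WT (left) and cKO against WT (right). On the right the medians are 1.82 for the 10 genes, 1.73 for the specific granule list and -0.51 for the azurophil list, and both signalling lists lie near 0.

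Set against the summed level of the specific granule and calprotectin genes, the sum of the 10 genes did not keep a fixed proportion. Together they had 26.0 ± 1.43 CPM per 100 CPM of those markers in WT, 55.6 ± 3.28 in APP/PS1 and 12.6 ± 0.292 in cKO (SD, n = 3), but this ratio was carried by Csf3r. Its size depended on the markers and the unit, at 42.5, 133.9 and 20.3 without S100a8 and S100a9 and 6.13, 9.78 and 3.20 in TPM, with the same order of groups. Without Csf3r it was 4.69, 3.89 and 5.85, a difference carried by Slfn4. Without Slfn4 as well, a choice made after seeing the data, the other 8 genes had 2.20 ± 0.0267, 2.23 ± 0.117 and 2.11 ± 0.0434 CPM per 100 CPM of the markers, so that their sum stayed close to a fixed proportion while single genes moved in different directions. Per 1000 CPM of the markers, Slfn4 had 24.9 ± 0.618, 16.5 ± 0.313 and 37.4 ± 0.868 CPM in WT, APP/PS1 and cKO. Prok2 had 0.781 ± 0.0422, 0.137 ± 0.119 and 1.10 ± 0.0321, so both were highest in cKO and lowest in APP/PS1. Mrgpra2b (2.69 ± 0.855, 2.12 ± 0.196 and 3.89 ± 0.201) was also highest in cKO. For Fpr1 (2.83 ± 0.20, 2.79 ± 0.567 and 3.36 ± 0.0379) cKO was above WT without overlap and overlapped APP/PS1. Other genes had other orders. Fpr2 was highest in APP/PS1 (4.20 ± 0.242, 6.27 ± 0.291 and 5.01 ± 0.266), and so was Csf3r (213 ± 14.2, 517 ± 33.6 and 67.4 ± 4.16). Cxcr2 (6.96 ± 0.411, 7.59 ± 1.28 and 5.16 ± 0.117) and G0s2 (3.77 ± 0.156, 3.28 ± 0.410 and 1.83 ± 0.103) were lowest in cKO, while WT and APP/PS1 overlapped. Cxcr1 was highest in WT (0.143 ± 0.0240, 0.0517 ± 0.000534 and 0.109 ± 0.0124), and the WT and cKO values of Mrgpra2a overlapped (0.654 ± 0.451, 0.104 ± 0.180 and 0.664 ± 0.15).

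Markers of other blood cells differed between the groups as well, and their part in the values of the 10 genes was not tested. Of 7 monocyte markers 5 rose and 1 fell in cKO against APP/PS1, where 27.3% of all genes rose. Their summed levels were 368 to 384 CPM in cKO, 220 to 238 in APP/PS1 and 371 to 381 in WT, so that cKO and WT overlapped. Of 5 eosinophil markers 3 rose (142 to 157, 53.7 to 58.8 and 155 to 172 CPM in the same order), and of 5 B cell markers 4 rose (19.1 to 20.1, 10.1 to 11.6 and 30.3 to 32.7 CPM). Erythroid markers had another order, with 67.4 to 74.6 CPM in cKO, 174 to 194 in APP/PS1 and 758 to 821 in WT. The 5 progenitor and cycling markers all rose in cKO against APP/PS1, with 533 to 554 CPM in cKO, 342 to 374 in APP/PS1 and 356 to 362 in WT. All 6 border macrophage markers were lower in cKO than in APP/PS1. Mast cell and basophil markers summed to a mean of 18 CPM in cKO and to 13.8 to 14.5 in APP/PS1 and 19.0 to 20.3 in WT, platelet markers to 22.3 to 24.2, 27.0 to 28.9 and 36.9 to 39.1, and T and NK cell markers to 28.1 to 29.4, 44.8 to 45.4 and 19.8 to 21.7. The 9 non-overlapping genes were highest in cKO, then WT, then APP/PS1. The summed level of none of these 9 lists had that order without overlap. The means of the progenitor and cycling list did follow it, at 544.8, 358.2 and 358.1 CPM, with WT and APP/PS1 overlapping. Single genes of 3 of the lists had that order without overlap, as did 6.61% of all genes. They were Ccr2, Ly6c2 and Plac8 among the monocyte markers, Mki67 and Top2a among the progenitor and cycling markers, and the basophil gene Mcpt8 (2.76, 0.414 and 6.69 CPM in WT, APP/PS1 and cKO). Mki67 had 63.1, 27.0 and 105 CPM in WT, APP/PS1 and cKO, and Ly6c2 had 38.4, 10.1 and 72.5 CPM.

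The nearest tested genes on either side of the 10 on their chromosomes came to 14. In cKO against APP/PS1 7 of them rose and 1 fell, with a median of 0.23, where 27.3% of all genes rose. Besides Slfn1 the rises over 1 were in Hsd11b1 beside G0s2 (2.32), Rufy4 beside Cxcr2 (1.57) and Gpr27 beside Prok2 (1.57). Mrps15, 2 kb from Csf3r, differed by -0.16 (edgeR adjusted p = 0.0544).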

How the data were processed

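Per the labels' protocols, poly-A libraries were read from a single end over 50 bases on the DNBSEQ platform. The submitters' processing notes name the build GRCm38.p6, HISAT, Bowtie2 and DESeq2, without their roles or versions. The deposited table gives, per the file headers, estimated counts, TPM, FPKM and a normalised signal for each gene and library, and the counting program and annotation are not given in the sources used here. The authors' deposited estimated counts carry decimals and are not scaled between libraries. They were rounded to whole numbers here, because the design had assumed values near counts, and tested with the edgeR 4.0.16 quasi-likelihood test (R 4.3.3, TMM scaling, filterByExpr, robust, 1 fit of all 9 libraries). P-values were adjusted by Benjamini and Hochberg over all 14696 tested genes, with a threshold of 0.05. No p is given for Cxcr1 and Mrgpra2a, which passed the filter only through the cKO libraries, or for Prok2, which was picked for its rise there. CPM uses TMM-scaled library sizes. Pooled-count ratios use the counts summed over the libraries of a group, relative to their TMM-scaled library sizes. The deposited TPM served to compare genes, and the FPKM, with pseudocounts of 1 and 0.1 on the log2 scale, served as an alternative. The deposited normalised-count signal was not tested.

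The 10 genes and all gene lists were chosen with earlier results of these data known. By rule, the text names all 10 genes, up to 4 genes of each list (those past the threshold in cKO against APP/PS1 with the largest log2 change and at least 1 CPM), the 10 genes with the most similar profile, and Gja1, Cx3cr1 and Ddx3y as checks of the labels. Outside this rule, and chosen after their values were seen, are Cxcl1, Cxcl2, Cxcl3, Cxcl5, Csf3, Pnpla2, Fcnb, Serpinb1a, Nkg7, Fpr3, the prokineticins and their receptors, and the chromosomal neighbours. Libraries with the same replicate number deviated together. Over 10813 genes, their deviations from the group means correlated at 0.138 to 0.264 in the 3 pairs of APP/PS1 and WT and at 0.0618 to 0.264 over all 9 pairs (other pairs averaged -0.0909). The numbers come from the labels, which do not say what they share. The p-values printed are from the fit without the replicate number, unless a sentence names the block, and the blocked value for APP/PS1 against WT stands beside a named gene where it changed the call. Alternatives were DESeq2 1.42.0 (size factors and Wald test), library totals, limma 3.58.1 on FPKM and TPM, other filters on low counts, the replicate block, offsets by transcript length, only the groups compared, and leaving out each library. The edgeR fit without the block, the limma and DESeq2 fits and the length offsets were tested on simulated data for APP/PS1 against WT. The other steps were not. Promoters and gene positions are from RefSeq (GRCm38.p6; 18517 identifiers matched), and transcripts from GENCODE mouse release M21 on the same build. Proteins were not used here.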

Additional observations from a re-analysis of the deposited data

How the results depend on the processing

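All 10 genes kept their direction in APP/PS1 against WT under every setting that gave a value. Of the 8 that passed the filter without the cKO libraries, 8 were called lower under each setting except at least 10 counts in every library, where Prok2 is not tested and 7 were called. Mrgpra2a and Cxcr1 were not counted. The block raised the number of called genes from 8670 to 9319 in APP/PS1 against WT, from 8085 to 8851 in cKO against APP/PS1 and from 7010 to 7934 in cKO against WT, and changed no call among the 8. Of the 8 tested partner genes, 3 were called in cKO against APP/PS1, 5 with the block, and 6 with only the groups compared, with TPM or with length offsets. As a hint from the data, every library correlated best with its own number, except that APP/PS1 library 3 was closer to cKO library 2 (0.0829) than to cKO library 3 (0.0618). Comparisons with cKO were not treated as paired. The Csf3r difference of cKO from WT turned to -0.0806 with library totals, -0.0693 and -0.0696 with FPKM, -0.1594 with TPM, and ran from -0.0225 to 0.0717 without a library. The median difference of the 10 genes in cKO against APP/PS1, 3.88, became 2.99 with at least 10 counts in every library, 2.67 and 3.28 with FPKM and pseudocounts of 1 and 0.1, 3.23 with TPM, 4.03 with length offsets (4.03 with the block as well), 3.28 without Prok2 and Mrgpra2a, and 3.84 to 3.95 without a library. Against WT the median of 1.82 became 1.45 with FPKM, 1.57 with TPM, 1.61 without Prok2 and Mrgpra2a and 1.57 to 1.93 without a library. The level relative to granule markers was 22 in WT and 12.1 in cKO with azurophil genes added to the markers. Without S100a8 and S100a9 it was 42.5, 133.9 and 20.3 in WT, APP/PS1 and cKO, without Csf3r 4.69, 3.89 and 5.85, without Csf3r and Slfn4 (chosen after seeing the data) 2.20, 2.23 and 2.11, and in TPM 6.13, 9.78 and 3.20, and without a library 25.5 to 26.8, 54.6 to 57.5 and 12.5 to 12.8. The cause of these shifts was not tested. With TPM the median over all genes in APP/PS1 against WT was -0.35, beside -0.04 in the fit described, and the share of called genes that were higher in cKO against WT was 51.9%, 30.4% with library totals and 19.8% with TPM. The counts of Cxcr1, Prok2 and Mrgpra2a in APP/PS1 limit the precision of their folds.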
